A study of Mus musculus with 2 samples.

Results

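The 10 genes of secreted Wnt inhibitors Sfrp1, Sfrp2, Sfrp4, Sfrp5, Frzb, Wif1, Dkk1, Dkk2, Dkk3 and Notum were followed across the cell populations of the mouse knee joint. They were chosen by name as a functional family, with earlier results of these data known. All 10 were among the 32285 features of both deposited tables. A library from mice after DMM surgery, in which the medial meniscus of the knee is destabilised and osteoarthritis follows, was set against a library from mice after sham surgery. Each was 1 library of cells pooled from 3 mice of genotype WT; the age of the mice and the time after surgery are not given in the sources used here. The cells are labelled as superficial cells of knee joint cartilage. Live cells (CalceinAM+ and DAPI-) were sorted, and those carrying the blood and vessel markers CD45, Ter119 or CD31 were left out.

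Wnt proteins are secreted signals that bind Frizzled receptors together with the co-receptors Lrp5 and Lrp6, and so stabilise beta-catenin in the receiving cell. Secreted frizzled-related proteins (Sfrp1, Sfrp2, Sfrp4, Sfrp5 and Frzb) carry a Frizzled-like domain that binds Wnt proteins outside the cell, Wif1 binds them through a domain of its own, Dkk1 and Dkk2 bind the Lrp co-receptors, and Notum is an enzyme that removes the lipid that Wnt proteins need to signal. Dkk3 is a Dickkopf relative whose effect on Wnt signalling is less clear. In the joint, Wnt signalling is known to influence cartilage maintenance and bone formation, and FRZB has been studied as a candidate gene in human osteoarthritis.

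Promoter stretches are shown for 3 members whose values carry most of what follows: Wif1, the most abundant member in cartilage clusters, and Sfrp2 and Dkk2, an Sfrp and a Dickkopf gene that differed in opposite directions between the libraries. RefSeq promoter windows were on hand for 6 of the 10 members (Frzb, Sfrp2, Dkk2, Wif1, Dkk1 and Sfrp5). The stretches are the bases before the gene start on GRCm38.p6, 5′ to 3′ along the gene, in lower case, with a TATA box motif (TATAAA, or on the other strand TTTATA) in capitals.
Wif1, chr10:121033754-121033959, plus strand: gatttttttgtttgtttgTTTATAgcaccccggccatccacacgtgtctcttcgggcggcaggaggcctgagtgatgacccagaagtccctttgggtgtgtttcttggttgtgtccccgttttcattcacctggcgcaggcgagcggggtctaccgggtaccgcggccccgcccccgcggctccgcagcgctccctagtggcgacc
Sfrp2, chr3:83766071-83766320, plus strand: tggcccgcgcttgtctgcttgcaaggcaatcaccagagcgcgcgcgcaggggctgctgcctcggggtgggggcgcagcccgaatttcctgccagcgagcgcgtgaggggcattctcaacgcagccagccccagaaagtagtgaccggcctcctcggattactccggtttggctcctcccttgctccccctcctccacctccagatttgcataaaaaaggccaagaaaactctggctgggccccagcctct
Dkk2, chr3:132085042-132085291, plus strand: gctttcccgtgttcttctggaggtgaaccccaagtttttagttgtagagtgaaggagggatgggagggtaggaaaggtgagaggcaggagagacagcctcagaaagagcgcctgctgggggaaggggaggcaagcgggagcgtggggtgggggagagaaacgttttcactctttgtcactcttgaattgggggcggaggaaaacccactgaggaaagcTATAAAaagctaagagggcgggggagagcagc
The motif lay 232 bases before the RefSeq start of Wif1, on the other strand, and 32 bases before that of Dkk2. It was found within 250 bases before the start in 3 of the 6 members (Wif1, Dkk2 and Dkk1), and in 12.4% of the 32817 promoter windows. The TCF/LEF core, the short letters that the nuclear partners of beta-catenin bind (CTTTGA, or on the other strand TCAAAG), was found in 2 of the 6 members, once in Frzb and 2 times in Dkk1, and in 13.8% of all windows. The SOX core (ACAAT, or on the other strand ATTGT) was in 0 of the 6 and in 27.7% of all windows. No match overlapped another in these 6 members. A match is a description of letters and not a binding site. In GENCODE vM21 on GRCm38 each stretch ends 1 base before a protein-coding gene: Wif1 at chr10:121033960-121100650, Sfrp2 at chr3:83766321-83774316 and Dkk2 at chr3:132085292-132180304, all on the plus strand. For Wif1 the stretch is 206 bases long, because the GENCODE annotation begins the gene 44 bases further upstream than RefSeq. It begins Frzb 229 and Dkk1 169 bases further upstream. The Frzb match, 95 bases before the RefSeq start, therefore lies inside the GENCODE gene. So do the TATA box of Dkk1 at 54 bases and its TCF/LEF core at 117 bases, while its core at 174 bases crosses the edge of the gene.

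After filtering, 9529 DMM and 9529 sham cells were kept, equal numbers that no step had set, with medians of 7859 and 8064 unique molecular identifiers (UMIs) per cell, and 26 clusters were found without using the 10 genes. Connective tissue made up 19 clusters with 8489 DMM and 7715 sham cells, which is 89.1% and 81.0% of the kept cells. The label of superficial cells fits only part of them: clusters named by superficial zone markers such as Erg and Chst3 held 1034 DMM and 1339 sham cells. The unnamed cluster Serpina1e/Inhba, in which 6 markers of the same list were raised, held another 949 DMM and 622 sham cells. The other clusters carried markers of chondrocytes, hypertrophic chondrocytes, osteoblasts, synovial lining, fibroblasts, tendon or ligament, marrow stroma and vessel walls, or stayed unnamed. A cluster is called here by its 2 leading genes and, where its markers allowed, by a class with the suffix "-like". The 2 libraries shared 24 barcodes, 17 of them among the kept cells. Levels are given as UMIs scaled to a total of 1000000 in each cluster (CPM). The kit counts 1 tag at the 3′ end of each captured molecule, so these counts do not scale with transcript length. Bracketed intervals are 95% intervals for counting error only. With 1 library per group there are no replicates and no test between DMM and sham, and neither differences between mice nor those between cells are covered.

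Erythroid-like cells, which should lack the genes, were used to read the background under these values; free RNA or other cells in the same droplets as its source was not tested. They held 893 DMM and 1548 sham cells, with a median of 9296 UMIs per cell in DMM and 7769.5 in sham. A Wif1 UMI was found in 3.92% of the DMM and 3.29% of the sham erythroid-like cells and an Sfrp4 UMI in 4.48% and 4.78%, whereas the other 8 members were found in at most 2.02% of them. In CPM, Wif1 was at 12.6 in DMM and 7.48 in sham, Sfrp4 at 5.72 and 5.45, and the other 8 members lay under 2 CPM in both. Of the 12.6 CPM of Wif1 in DMM, most came from a small erythroid-like cluster (Tmcc2/Slfn14, 231 CPM in DMM and 6.74 in sham), and in the other erythroid-like clusters it was at 3.36 to 3.49 CPM in DMM and 6.93 to 8.37 in sham.

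The cluster with the highest level was the same in both libraries for 9 of the 10 members, and several members shared it. In DMM and in sham alike, the highest CPM among the 19 connective tissue clusters was in superficial zone chondrocyte-like cells for Wif1 and Frzb, in an unnamed cluster led by the Wnt effector Lef1 for Notum, in fibroblast-like cells for Sfrp4, Dkk2 and Dkk3, in tendon or ligament-like cells for Sfrp2, in marrow stromal-like cells for Sfrp1 and in osteoblast-like cells for Dkk1. Sfrp5 was highest in the superficial zone chondrocyte-like cluster Msmp/Rbp4 in DMM and in the Lef1/Chil1 cluster in sham, by a margin within its counting intervals. Wif1 was the most widespread, with at least 10 CPM in both libraries in 16 of the 19 clusters, against 14 for Dkk3, 11 for Sfrp4, 8 for Frzb and 2 each for Dkk1 and Dkk2.

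**Figure D1:**
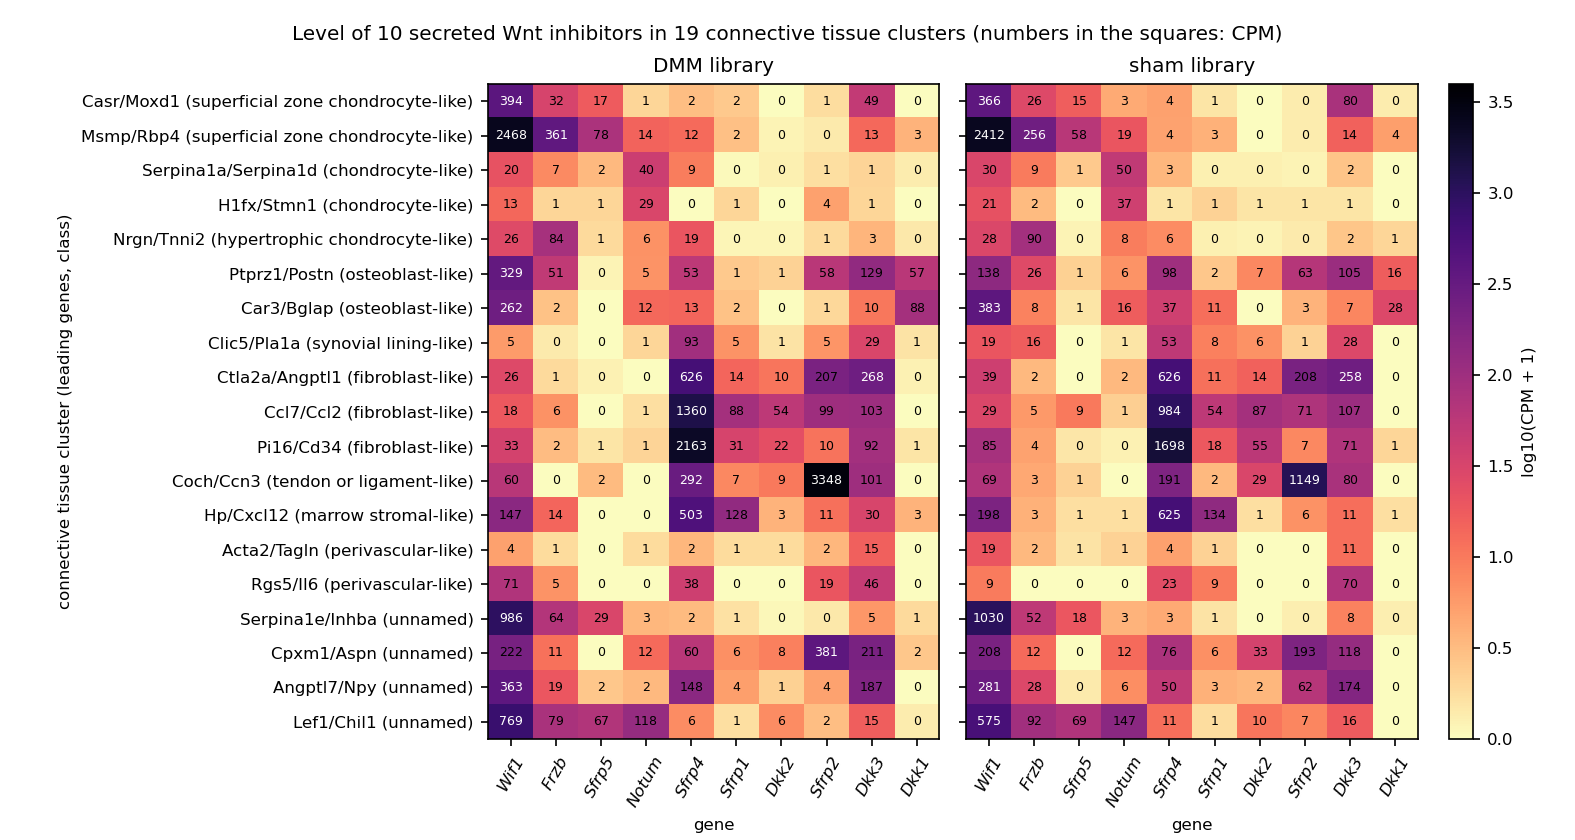
Level of the 10 genes (columns) in the 19 connective tissue clusters (rows), in the DMM library on the left and the sham library on the right, as log10(CPM + 1) in colour and CPM in the squares. Wif1 is highest in Msmp/Rbp4 cells (2468 CPM in DMM, 2412 in sham), Sfrp4 in Pi16/Cd34 fibroblast-like cells (2163 and 1698) and Sfrp2 in the small tendon or ligament-like cluster (3348 and 1149).

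Wif1 was the main inhibitor transcript of the superficial zone. In the Msmp/Rbp4 superficial zone chondrocyte-like cluster it was at 2468 [2425, 2511] CPM in DMM and 2412 [2371, 2453] in sham, and 94.2% of DMM and 94.8% of sham cells held at least 1 Wif1 UMI. Next came an unnamed cluster led by Serpina1e and Inhba, whose best score was for the superficial zone list but whose leading genes include the hypertrophic gene Col10a1, with 986 [965, 1006] CPM in DMM and 1030 [1006, 1055] in sham. The Lef1/Chil1 cluster followed with 769 [737, 802] and 575 [555, 597] CPM. The second superficial zone chondrocyte-like cluster, Casr/Moxd1, was at 394 [375, 415] and 366 [350, 383] CPM, with overlapping intervals beside Angptl7/Npy in DMM (363 [340, 387]) and the osteoblast-like Car3/Bglap in sham (383 [355, 412]). The order of these 4 clusters was the same in both libraries and no neighbours in it had overlapping intervals. Wif1 was low in the other named chondrocyte clusters. The Serpina1a/Serpina1d chondrocyte-like cluster was at 20.3 CPM in DMM and 29.9 in sham, and hypertrophic chondrocyte-like cells were at 26.1 and 28.4. The intervals of these 2 clusters overlapped in both libraries. Synovial lining-like cells, a tissue known to share the lubricant gene Prg4 with the superficial zone, were at 4.74 [3.47, 6.32] CPM in DMM, where the 2 larger erythroid-like clusters were at 3.36 [2.21, 4.89] and 3.49 [1.67, 6.41], and at 18.8 in sham, where 1 cell held 66.7% of the Wif1 UMIs.

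Frzb, an Sfrp known from developing cartilage, had its highest level in the same Msmp/Rbp4 cells, at 361 [345, 378] CPM in DMM and 256 [243, 270] in sham. It was also found where Wif1 was low. Hypertrophic chondrocyte-like cells, marked by Ihh and Panx3, were at 84.2 [77.4, 91.4] CPM in DMM and 89.8 [84.1, 95.9] in sham, and the Lef1/Chil1 and Serpina1e/Inhba clusters, both high in Wif1, were at 79.0 and 64.4 CPM in DMM and at 92.1 and 52.03 in sham. In the chondrocyte-like cluster Serpina1a/Serpina1d it was at 6.53 and 8.92 CPM. Casr/Moxd1 cells, the second superficial zone chondrocyte-like cluster, were at 32.0 CPM in DMM and 26.2 in sham, below the hypertrophic cells in both libraries. Its hypertrophic share depended on depth: 56.3% of DMM and 62.3% of sham hypertrophic chondrocyte-like cells held a Frzb UMI at medians of 16453 and 18995 UMIs per cell, and 15.7% and 14.8% did so once each cell was thinned to 2000 UMIs. Of the erythroid-like cells, 0.224% in DMM and 0.452% in sham held one before thinning.

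Sfrp5 was sparse and shared its clusters with Wif1 and Frzb. It was at 77.9 [70.4, 86.0] CPM in DMM and 58.4 [52.3, 65.1] in sham in Msmp/Rbp4 cells, and at 67.4 [58.3, 77.7] and 68.6 [61.6, 76.2] CPM in the Lef1/Chil1 cluster. The Serpina1e/Inhba cluster was at 29.2 CPM in DMM and 18.3 in sham, and Casr/Moxd1 at 16.5 and 15.4. These were the 4 clusters over 10 CPM in both libraries, and no other cluster reached 10 CPM in both.

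Notum, the Wnt-inactivating enzyme, is also a gene that Wnt signalling is known to switch on. It was highest in the Lef1/Chil1 cluster, at 118 [106, 131] CPM in DMM and 147 [136, 158] in sham. The Serpina1a/Serpina1d chondrocyte-like cells followed with 39.8 and 50.03 CPM, and dividing chondrocyte-like cells (H1fx/Stmn1) with 29.5 and 36.9. The Serpina1e/Inhba and Casr/Moxd1 clusters, where Wif1 was high, were at 2.53 and 1.02 CPM in DMM and at 2.72 and 3.42 in sham. Of the clusters with at least 100 CPM of Wif1 in both libraries, Lef1/Chil1 was the one where Notum also passed 100 CPM in both.

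**Figure D2:**
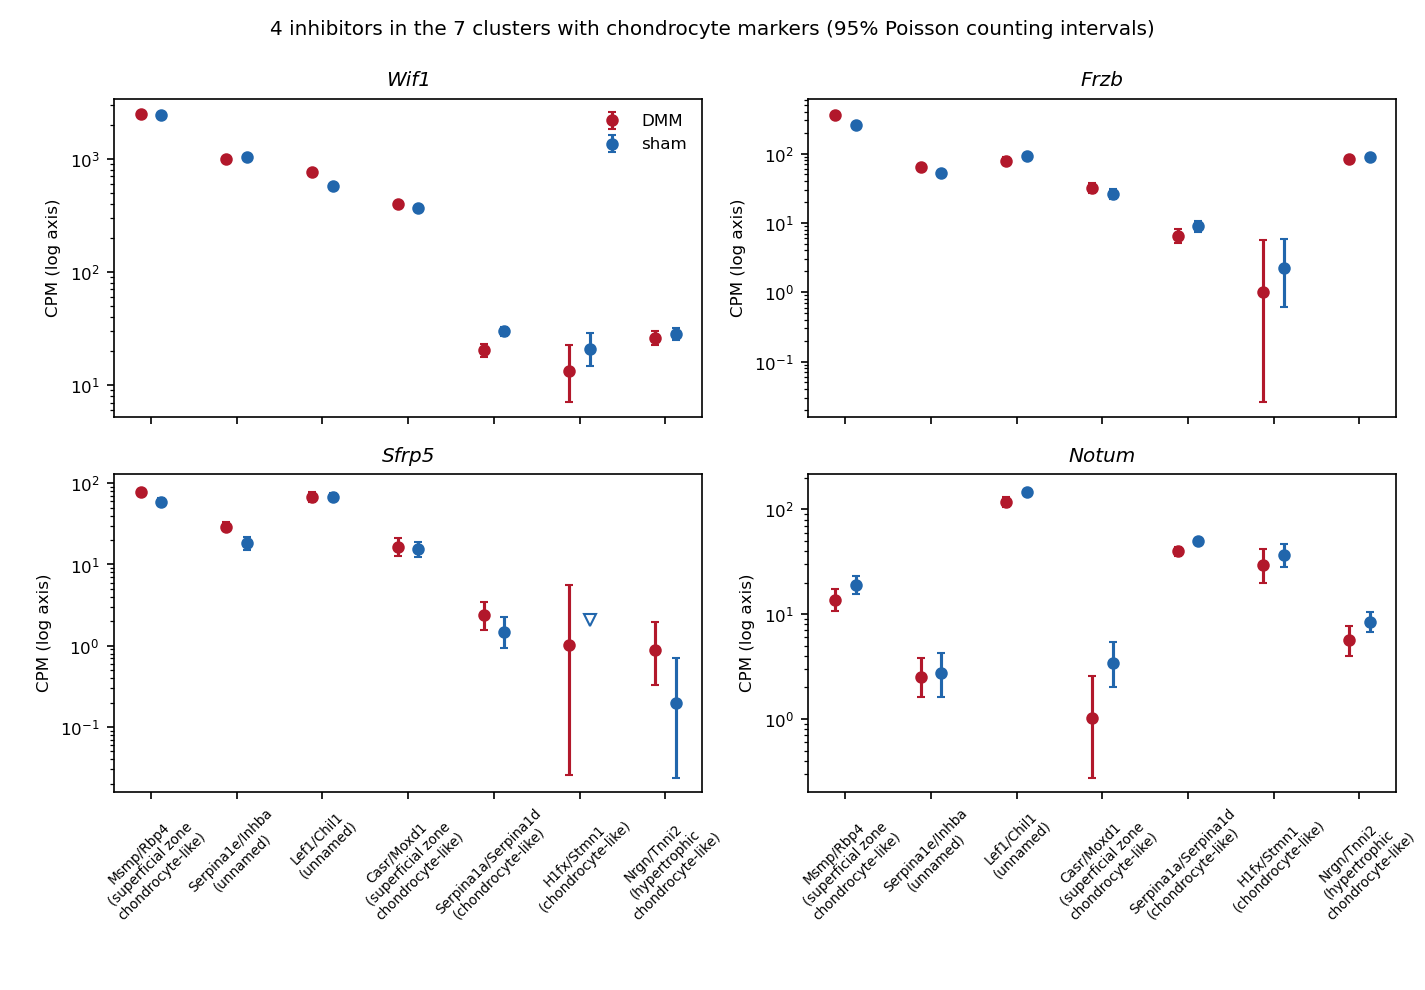
CPM (log axis) of Wif1, Frzb, Sfrp5 and Notum in 7 clusters with chondrocyte markers, DMM left of sham in each pair, with Poisson 95% intervals; an open triangle marks the upper limit where no UMI was found. Wif1 lies between 366 and 2468 CPM in the 4 clusters on the left and at 30 CPM or less in the 3 on the right, while Notum peaks in Lef1/Chil1 and Frzb has a second high in hypertrophic chondrocyte-like cells.

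Sfrp4 was the main inhibitor transcript of fibroblast-like cells. In Pi16/Cd34 cells, which carry markers of connective tissue progenitor fibroblasts, it was at 2163 [2097, 2230] CPM in DMM and 1698 [1658, 1738] in sham, and 74.5% of DMM and 79.3% of sham cells held a UMI. The Ccl7/Ccl2 fibroblast-like cluster was at 1360 CPM in DMM and 984 in sham, and Ctla2a/Angptl1 at 626 in both. Marrow stromal-like cells (Cxcl12, Lepr, Adipoq) were at 503 and 625 CPM. In the chondrocyte-like and superficial zone chondrocyte-like classes the level was 2.32 to 7.83 CPM over both libraries, near the 5.45 to 5.72 CPM of erythroid-like cells.

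Sfrp1 had its highest level in the marrow stromal-like cells, at 128 [104, 157] CPM in DMM and 134 [115, 154] in sham, intervals that overlapped. The Ccl7/Ccl2 fibroblasts were next, with 88.3 CPM in DMM and 54.4 in sham. No chondrocyte cluster exceeded 3 CPM in either library.

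Sfrp2 reached its highest level in a small cluster. The Coch/Ccn3 tendon or ligament-like cells, marked by Tnmd, numbered 61 in DMM and 109 in sham and were at 3348 [3178, 3524] and 1149 [1078, 1223] CPM. They were 0.72% of DMM and 1.41% of sham connective tissue cells and held 27.7% and 42.4% of its Sfrp2 UMIs. The unnamed Cpxm1/Aspn cluster was at 381 CPM in DMM and 193 in sham and held 40.5% and 14.3% of those UMIs, and there the gene was on in few cells: the tenth of cells with the most Sfrp2 held 92.4% of the UMIs in DMM and 98.5% in sham. Ctla2a/Angptl1 fibroblast-like cells were at 207 and 208 CPM.

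The Dickkopf genes each had their highest level in a different cluster. Dkk3 was spread over fibroblast-like, osteoblast-like and unnamed clusters, with a high of 268 [253, 283] CPM in DMM and 258 [231, 288] in sham in Ctla2a/Angptl1 cells. Dkk2 was highest in another fibroblast-like cluster, with 53.8 [45.7, 63.1] CPM in DMM and 86.6 [78.5, 95.4] in sham in Ccl7/Ccl2 cells, where Dkk3 was at 103 and 107 CPM. Dkk1, a known brake on bone formation, was found mainly in osteoblast-like cells: the mature Car3/Bglap cluster (83 DMM and 161 sham cells) was at 87.6 [70.6, 107] CPM in DMM and 27.6 [20.6, 36.3] in sham, and the Ptprz1/Postn cluster at 57.0 [50.7, 63.7] and 15.8 [11.3, 21.5]. The Ptprz1/Postn cluster held 68.3% of the connective tissue Dkk1 UMIs in DMM and 29.9% in sham, and the Car3/Bglap cluster 20.7% and 38.1%.

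Some members had correlated profiles over the 24 clusters with at least 50 cells in each library, as a description of points that share libraries and depth. By the smaller of both libraries' Pearson correlations of log2(CPM + 10), Sfrp4 went with Dkk2 (0.75) and Sfrp1 (0.74), Frzb with Sfrp5 (0.72) and Wif1 (0.70), and Sfrp2 with Dkk3 (0.69). Among 10090 other genes, those most alike to Wif1 were D630045J12Rik (0.86), Fibin (0.83) and the transcription factor Etv5 (0.82). For Frzb they were the Wnt receptor Fzd9 (0.79), Tnfrsf11b (0.79), which encodes the osteoclast inhibitor osteoprotegerin, and Gm28153 (0.77), and for Sfrp5 Chrdl2 (0.81), a BMP inhibitor, Sim2 (0.77) and Rbp4 (0.77). For Notum they were Calml3 (0.87), Pcp4 (0.87) and Paqr5 (0.86). Sfrp2 was closest to Tnmd (0.90), a tendon gene, Cpxm1 (0.89) and Thbs2 (0.85), Sfrp4 to Scara5 (0.93), Svep1 (0.91) and Igf1 (0.90), Sfrp1 to Chl1 (0.90), Fmo2 (0.89) and Ccbe1 (0.88), and Dkk3 to Nbl1 (0.92), Cys1 (0.91) and Col3a1 (0.89). Some of these genes also lead the clusters in which the member was high, and the clusters were built from them.

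The question of the design is what joint destabilisation does to these cells. Over all connective tissue cells, Dkk1 was at 5.86 CPM in DMM and 1.75 in sham, 3.34-fold [2.75, 4.08] higher, Sfrp2 at 69.3 and 30.4 CPM, 2.28-fold [2.17, 2.39] higher, and Dkk3 at 63.4 and 38.4 CPM, 1.65-fold [1.57, 1.73] higher. Dkk2 was lower, at 4.34 CPM in DMM and 10.9 in sham (ratio 0.398 [0.349, 0.453]), and so was Notum, at 14.1 and 24.9 CPM (0.566 [0.524, 0.610]). The other 5 members, Sfrp1, Sfrp4, Sfrp5, Frzb and Wif1, had ratios between 0.942 and 1.05. A difference is called here where the ratio is at least 1.5-fold in either direction, its interval leaves out 1 and both libraries together hold at least 50 UMIs. By that rule 3 members of 10 were higher and 2 lower in DMM, whereas over all 16527 genes tested in connective tissue 4.04% were higher and 14.6% lower.

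The pooled totals mix 2 things, the level within each cluster and the share of connective tissue UMIs that each cluster contributed. This share, called makeup here, depends on both the number of cells and their UMIs per cell. With the cluster levels of DMM weighted by the makeup of sham, the ratio to sham was 2.62 for Dkk1, 1.96 for Sfrp2, 0.519 for Dkk2, 0.786 for Notum and 1.06 for Dkk3. With sham levels at the makeup of DMM, it was 1.11 for Dkk1, 1.43 for Sfrp2, 0.896 for Dkk2, 0.713 for Notum and 1.43 for Dkk3. The total of Dkk3 therefore moved with makeup. Counted in cells, which is only part of makeup, Ctla2a/Angptl1 was 6.66% of connective tissue in DMM and 2.07% in sham. Cpxm1/Aspn was 10.4% and 3.88%. Chondrocyte-like Serpina1a/Serpina1d cells, which held 41.0% of DMM and 40.6% of sham Notum UMIs, were 10.7% of the cells in DMM and 14.5% in sham. For Sfrp1 and Sfrp4, whose totals were near 1, the 2 parts went opposite ways, with 1.28 at sham makeup and 0.797 and 0.784 at sham levels. Most of the Sfrp2 rise at sham makeup came from the small Coch/Ccn3 cluster, at 3348 CPM in DMM and 1149 in sham. The Sfrp2 call in these tendon or ligament-like cells was kept in 9 of 14 alternative settings. Cluster shares were not tested, and with 1 pool of mice per group surgery and dissection cannot be told apart as their source.

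**Figure D3:**
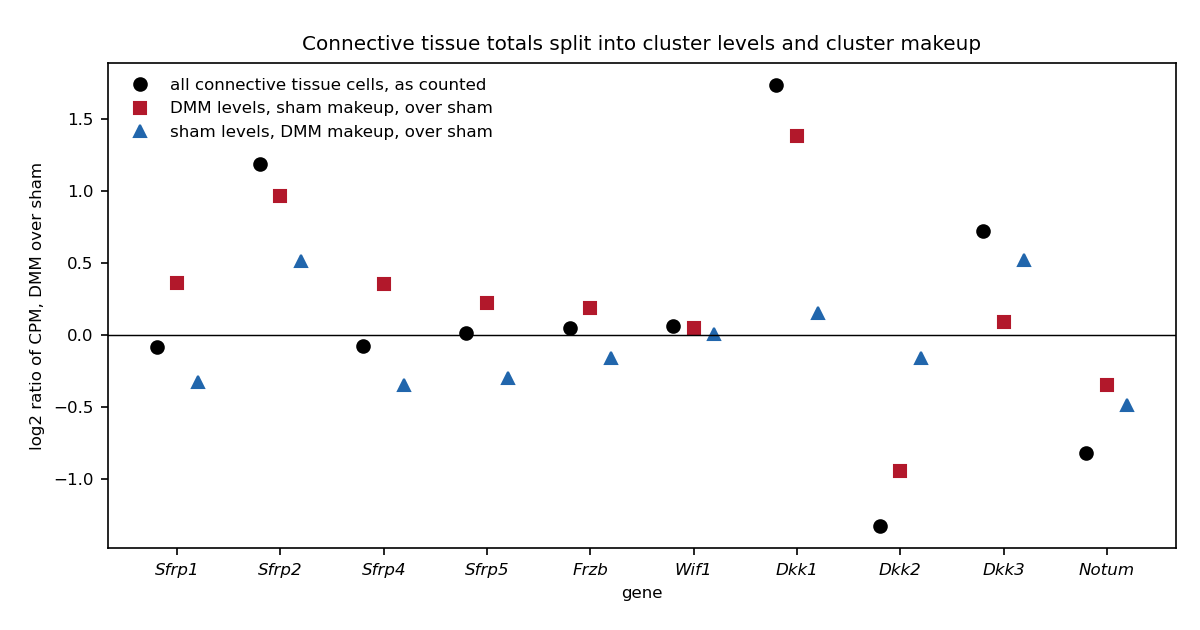
Log2 ratio, DMM over sham, of each gene's CPM over all connective tissue cells (black circles), of DMM cluster levels at the sham makeup (red squares) and of sham cluster levels at the DMM makeup (blue triangles). Dkk1, Sfrp2 and Dkk2 keep most of their ratio at a fixed makeup, whereas that of Dkk3 is 1.65 as counted and 1.06 at the sham makeup. Most of the Sfrp2 rise at the sham makeup comes from the small Coch/Ccn3 cluster.

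Within single clusters, 82 pairs of a member and a connective tissue cluster held at least 50 UMIs. Of these, 17 (20.7%) were called higher and 13 (15.9%) lower in DMM, against 4.10% higher and 11.2% lower over all pairs of a gene and a cluster. In the 9 named connective tissue classes, 44 pairs were tested, with 12 higher (27.3%) and 6 lower (13.6%), against 4.30% and 11.6% over all genes. CPM placed the median of all genes at a log2 ratio between -0.20 (superficial zone chondrocyte-like) and -0.04 (marrow stromal-like), and at -0.16 in connective tissue. With each class scaled to that median instead, the class calls were 15 higher and 4 lower, and no share over all genes is given here for that scaling. Several calls rested on 1 cell with a very high count. Without the cell with the most UMIs of the gene in each library, 14 of the 17 higher and 9 of the 13 lower cluster calls were kept.

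**Figure D4:**
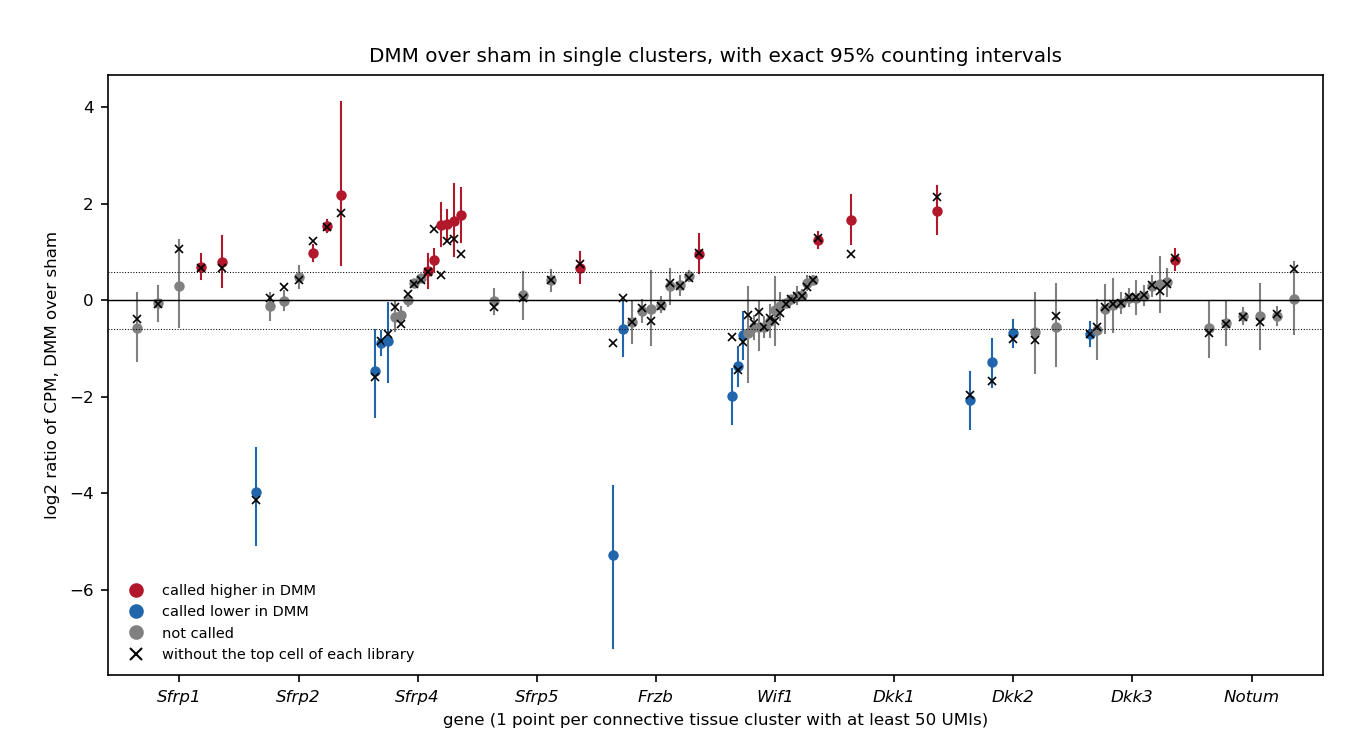
Log2 ratio of CPM, DMM over sham, for each gene in each connective tissue cluster with at least 50 UMIs, with exact 95% counting intervals; red points are called higher in DMM, blue points lower, grey points neither, dotted lines mark 1.5-fold and crosses give the ratio without the top cell of each library. All 5 points of Dkk2 lie below 0 and both of Dkk1 above it, and the lowest Frzb point, in synovial lining-like cells, has a ratio of 0.0258 with those cells and 0.538 without them.

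Sfrp2 was higher in DMM in 3 clusters and lower in 1. In tendon or ligament-like cells the ratio was 2.91 [2.69, 3.16], and 2.85 without the top cells, and the share of cells with a UMI was 88.5% in DMM and 64.2% in sham (78.7% and 44.9% after thinning). That cluster is small and its borders matter: the call was lost in 5 of 14 alternative settings, where the ratio could be as low as 0.12 on the log2 scale. In the Cpxm1/Aspn cluster the ratio was 1.98 [1.76, 2.23] and the share of cells 20.1% in DMM and 11.4% in sham. The ratio was 0.992 [0.864, 1.14] in Ctla2a/Angptl1 cells, and in Ccl7/Ccl2 cells the ratio of 1.40 [1.19, 1.65] stayed below the limit. In the Angptl7/Npy cluster Sfrp2 was at 3.94 CPM in DMM and 62.0 in sham (0.0635 [0.0299, 0.12]), where 1 sham cell held 44.4% of the UMIs, and at 0.0571 without the top cells.

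Dkk1 was higher in both osteoblast-like clusters. In Ptprz1/Postn cells, which carry the early matrix gene Postn, the ratio was 3.61 [2.59, 5.15], and a UMI was found in 10.3% of 843 DMM cells and 3.94% of 432 sham cells. In Car3/Bglap cells it was 3.17 [2.23, 4.56], with 1 DMM cell holding 52.2% of the DMM UMIs, and 1.93 without the top cells. Wif1 and Frzb were also higher in the Ptprz1/Postn cells: Wif1 at 329 CPM in DMM and 138 in sham (2.38-fold [2.12, 2.68]), and Frzb at 50.8 and 26.0 CPM (1.95-fold [1.48, 2.59]). Sfrp4 was lower there, at 53.0 CPM in DMM and 97.8 in sham (0.542 [0.455, 0.645]), and it was also lower in Car3/Bglap cells, at 13.3 and 36.8 CPM (0.362 [0.188, 0.650]). In those mature cells Wif1 was at 262 CPM in DMM and 383 in sham (0.684 [0.593, 0.788]), which did not reach the limit.

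Dkk2 had a ratio below 1 in all 5 clusters in which it was tested, and was called lower in DMM in 3 of them: 0.621 [0.513, 0.75] in Ccl7/Ccl2 and 0.410 [0.287, 0.572] in Pi16/Cd34 fibroblast-like cells, and 0.238 [0.157, 0.359] in Cpxm1/Aspn cells. A Dkk2 UMI was found in 11.9% of DMM and 19.9% of sham Ccl7/Ccl2 cells, and in 5.32% and 11.4% of Pi16/Cd34 cells, against at most 0.112% of erythroid-like cells. Wif1 was also lower in these fibroblasts, at 17.6 CPM in DMM and 28.9 in sham in Ccl7/Ccl2 (0.609 [0.432, 0.848]) and at 33.1 and 85.1 CPM in Pi16/Cd34 (0.389 [0.292, 0.511]). Sfrp1 was higher in both, with 1.62-fold [1.36, 1.94] and 1.75-fold [1.21, 2.50], and Sfrp4 was 1.38-fold [1.32, 1.44] and 1.27-fold [1.23, 1.32] higher, under the limit. The fibroblast-like class as a whole showed ratios of 2.16 for Sfrp2 and 1.64 for Dkk3, but its Ctla2a/Angptl1, Ccl7/Ccl2 and Pi16/Cd34 clusters had Dkk3 ratios of 1.04, 0.967 and 1.30, and its makeup differed between the libraries.

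In the superficial zone most levels were close. Wif1 had a ratio of 1.02 [0.999, 1.05] in Msmp/Rbp4, 1.08 [1.01, 1.15] in Casr/Moxd1 and 0.957 [0.927, 0.987] in Serpina1e/Inhba cells. Frzb was 1.41-fold [1.32, 1.51] higher in Msmp/Rbp4 cells and just under the limit in the superficial zone chondrocyte-like class, at 217 CPM in DMM and 145 in sham. It passed the limit there when each class was scaled to the median gene. Its share of Msmp/Rbp4 cells after thinning was 39.1% [34.8, 43.5] in DMM and 25.2% [21.8, 28.9] in sham. Sfrp5 was 1.59-fold [1.28, 1.99] higher in Serpina1e/Inhba cells. Dkk3 was lower in Casr/Moxd1 cells, at 49.3 CPM in DMM and 79.9 in sham (0.617 [0.518, 0.733]), a call that was lost with median scaling, and higher in Cpxm1/Aspn cells, at 211 and 118 CPM (1.78-fold [1.54, 2.08]).

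Notum was not called in any single cluster, yet it was below 1 in 5 of its 6 tested ones. The ratio was 0.802 [0.703, 0.913] in Lef1/Chil1 cells and 0.796 [0.706, 0.896] in Serpina1a/Serpina1d chondrocyte-like cells. On the log2 scale the ratio in the Serpina1a/Serpina1d cells was -0.33, and that of the median gene of the chondrocyte-like class was -0.16. In hypertrophic chondrocyte-like cells it was at 5.67 CPM in DMM and 8.47 in sham (0.670 [0.445, 0.992]), and without the top cells that ratio was 0.628 and was called.

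Besides both osteoblast-like clusters, Sfrp4 was called in 7 connective tissue clusters, none of them fibroblast-like, and in 4 of these its level was low. It was lower in DMM in Lef1/Chil1 cells, at 6.29 CPM in DMM and 11.3 in sham (0.558 [0.309, 0.962]), a call lost without the top cells. It was at 8.53 CPM in DMM and 2.52 in sham in Serpina1a/Serpina1d cells, 12.2 and 3.91 in Msmp/Rbp4 cells and 18.96 and 6.40 in hypertrophic chondrocyte-like cells, where 1 cell held 46.8%, 37.1% and 70.1% of the DMM UMIs. Without the top cells the ratios were 1.96, 2.41 and 1.44, and the last was no longer called. In Angptl7/Npy cells Sfrp4 was at 148 CPM in DMM and 49.9 in sham (2.98-fold [2.42, 3.68], and 2.34-fold without the top cells). In tendon or ligament-like cells it was at 292 and 191 CPM (1.53-fold [1.20, 1.94]), a call lost without the top cells and turned round under 6 other clusterings. In synovial lining-like cells Sfrp4 was at 93.3 CPM in DMM and 52.5 in sham (1.78-fold [1.52, 2.09]) and its share of cells 27.8% and 13.8%. A single sham cell held 42.4% of the sham UMIs there, and the ratio was 2.80 without the top cells. In the same lining-like cells Frzb was at 0.412 CPM in DMM and 16.0 in sham, but 1 sham cell held 96.4% of those UMIs, and the calls of Frzb, Wif1 and Sfrp2 in this cluster were lost without the top cells.

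**Figure D5:**
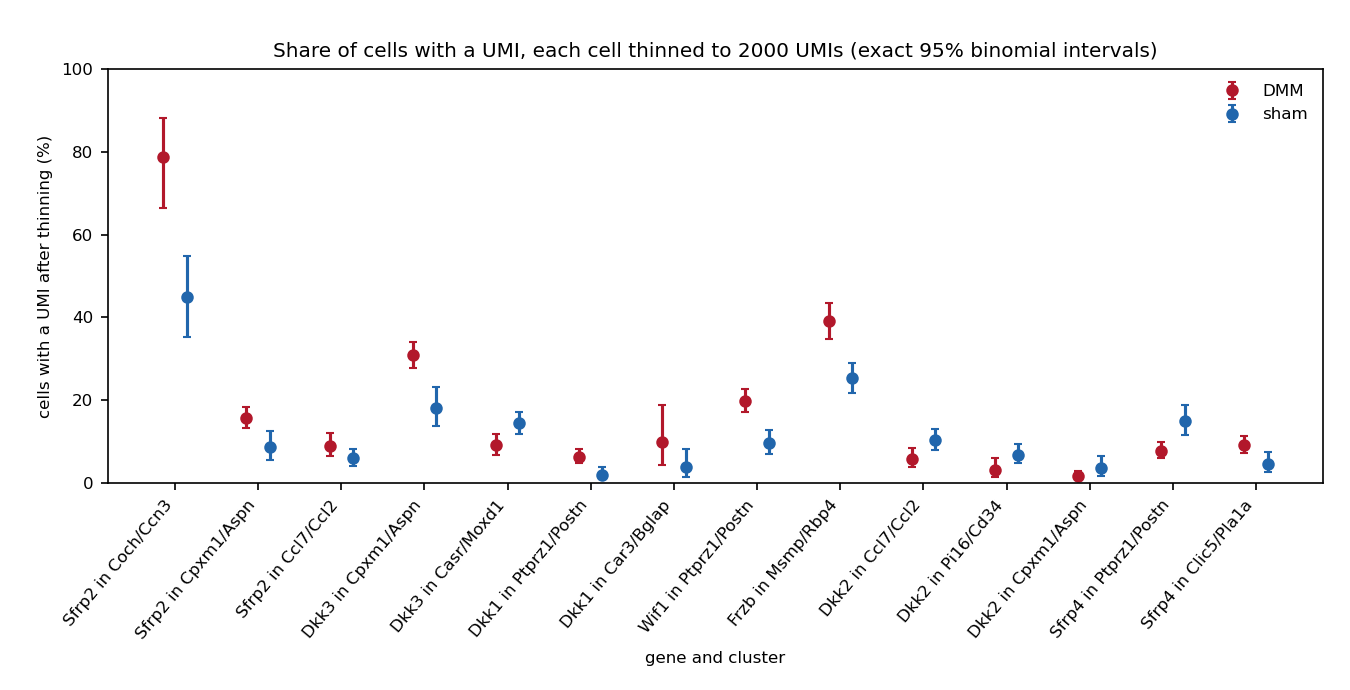
Share of cells with at least 1 UMI of the gene after each cell was thinned to 2000 UMIs, DMM left of sham in each pair, with exact 95% binomial intervals, for 14 pairs of a gene and a cluster. Sfrp2 in Coch/Ccn3 cells is at 78.7% in DMM and 44.9% in sham, Frzb in Msmp/Rbp4 cells at 39.1% and 25.2%, and Dkk2 is lower in DMM in its 3 clusters, with overlapping intervals.

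Cells differed in how many inhibitors they carried. After thinning to 2000 UMIs, 39.3% of DMM and 31.7% of sham Msmp/Rbp4 cells held UMIs of at least 2 members, and 7.54% and 9.80% held none. Among synovial lining-like cells 85.3% in DMM and 88.5% in sham held none, and among Serpina1a/Serpina1d chondrocyte-like cells 86.8% and 82.9%. Summed over the 10 members, Msmp/Rbp4 cells were at 2951 CPM in DMM and 2771 in sham, of which Wif1 made up 83.6% and 87.0%. Pi16/Cd34 cells were at 2356 and 1939 CPM, of which Sfrp4 made up 91.8% and 87.6%. In Ptprz1/Postn cells the sum was 685 CPM in DMM and 460 in sham, and the share of Wif1 48.1% and 30.0%.

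Procr, a surface marker by which the study sorted cartilage cells for a separate experiment, was also looked at. In the Serpina1e/Inhba cluster, the 86 DMM and 48 sham cells with a Procr UMI were at 678 [628, 732] and 689 [626, 758] CPM of Wif1, and the 863 and 574 cells without one at 1023 [1001, 1045] and 1066 [1040, 1092]. In Msmp/Rbp4 cells the values were 1978 CPM in 24 DMM and 1517 in 20 sham cells with a Procr UMI, and 2501 and 2450 CPM without. In Casr/Moxd1 cells Wif1 was lower with a Procr UMI in DMM (261 and 405 CPM) and not in sham (379 and 364 CPM). Cells with a Procr UMI had more UMIs in every one of these sets, and the part of depth in the difference was not tested.

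The pathway was read from 7 lists that together hold 78 Wnt genes, among them the member Notum, listed as a Wnt target. Over all connective tissue 64 were tested, with 4 higher and 14 lower, against 4.04% higher and 14.6% lower over all genes. Notum is among the 14. With median scaling 6 were higher and 7 lower, and no share over all genes is given here for that scaling. In superficial zone chondrocyte-like cells 47 were tested, with 2 higher and 13 lower in DMM, against 2.86% higher and 15.2% lower over all genes. The higher ones were the receptor gene Fzd4 (1.83-fold [1.17, 2.89]) and the transcription factor gene Lef1 (1.61-fold [1.12, 2.34]). The lower ones included the growth gene Myc (8.66 CPM in DMM and 19.9 in sham, ratio 0.435), the receptor genes Fzd10 (0.459), Fzd8 (0.578), Fzd7 (0.628) and Lrp5 (0.573), the receptor-degrading ligase gene Znrf3 (53.1 and 92.9 CPM, 0.571), Axin1 (0.589), the feedback target Axin2 (0.594), the Wnt genes Wnt9a (0.605) and Wnt4 (0.573), Lgr4 (0.625), Apc (0.613) and the Dkk receptor gene Kremen1 (0.637). With median scaling Myc, Fzd10, Fzd8, Lrp5 and Znrf3 stayed called.

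In chondrocyte-like cells 0 of 48 tested genes were higher and 4 lower (Apc, Draxin, Ryk and Znrf3, ratios 0.430 to 0.643), against 1.58% and 8.72% over all genes. Hypertrophic chondrocyte-like cells had 1 higher of 44, Nkd1, an inhibitor of Dishevelled (1.88-fold [1.07, 3.32]), and 11 lower, against 1.75% and 12.3%. Their lower genes included Wnt11 (46.7 CPM in DMM and 74.1 in sham, 0.631), Tcf7l1 (0.611), Gsk3b (0.657), Ryk (0.585), Axin1 (0.468), Ror1 (0.517) and Fzd6 (0.468).

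Synovial lining-like cells had 4 higher and 14 lower of 45, against 5.45% and 11.5% over all genes. The higher ones were the receptor genes Fzd1 (32.9 CPM in DMM and 18.8 in sham, 1.74-fold) and Fzd2 (1.86-fold), the R-spondin gene Rspo4 (2.09-fold), whose product strengthens Wnt signals, and Igfbp4 (750 and 476 CPM, 1.58-fold). Of 13 receptor genes tested 7 were lower, with Fzd4 at 0.446, Fzd3 at 0.508, Lrp5 at 0.595, Fzd8 at 0.606, Fzd7 at 0.611, Ror1 at 0.623 and Lrp6 at 0.645. Wnt11 (0.487), Wnt5b (0.534), Nkd1 (0.441), Lgr6 (0.533), Rspo3 (0.592), Znrf3 (0.581) and Tcf7l2 (0.649) were lower too. The median log2 ratio of the tested Wnt genes was -0.35 in superficial zone chondrocyte-like, -0.29 in hypertrophic, -0.25 in chondrocyte-like and -0.24 in lining-like cells, beside -0.20, -0.18, -0.16 and -0.10 over all genes.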

How the data were processed

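Sorted cells of 1 DMM and 1 sham library, each from 3 pooled mice, were measured by 3′ single-cell RNA sequencing. The deposited values are counts of UMIs per gene and cell without normalisation, made with Cell Ranger 7.1.0 per the file headers. The submitters' processing notes name Cell Ranger 3.0.1, Seurat, STAR, HTSeq, DESeq2 and mm10 without saying which data each was used for. Another table of the series has 6 columns of per-sample values, which were not used here.

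The DMM table held 11076 barcodes with 97346999 UMIs and that of sham 11362 with 106799078 UMIs. Cells needed 500 detected genes or more, and no more than 10% of their UMIs from mitochondrial genes. Scrublet doublets were removed in each library (3.64% in DMM and 4.63% in sham). With scanpy 1.11.5, 2000 variable genes (the 10 inhibitors left out, values scaled and limited to 10 SD), 30 principal components, 15 neighbours and Leiden clustering at resolution 1 (leidenalg 0.10.2, seed 1) gave the clusters. The libraries were not integrated. A cluster was named from 20 marker lists where its best score was at least 0.75 and at least 3 markers were detected and raised over the other cells. Its leading genes also had to not go against the name. Connective tissue clusters were the named ones outside the blood, endothelial, glial and muscle classes, and the unnamed ones with Serpinh1 in at least 50% of cells. The scaling, the score limit and the Serpinh1 rule were chosen after seeing the data.

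UMIs were summed per library and cluster or class. Intervals at 95% are Poisson for CPM, Clopper-Pearson for shares and exact conditional binomial for ratios (scipy 1.17.1), and cover counting error only. Clusters with at least 50 cells in each library were compared. The interval procedure was tested on simulated data. Shares of cells were also taken after thinning each cell to 2000 UMIs, with shallower cells left out. Alike genes are the 3 with the highest smaller correlation, for members with at least 500 UMIs. Gene names and positions come from the files and GENCODE vM21, promoters from RefSeq. In the Wnt lists, genes past the limit were named, except in hypertrophic chondrocyte-like cells, where examples were. The 10 genes, the lists and the comparisons were chosen with earlier results of these data known.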

Additional observations from a re-analysis of the deposited data

How the results depend on the processing

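No paired analysis was possible because each group is 1 library, and for the same reason no replicate could be left out in turn. Among the named connective tissue classes, that with the highest level was the same for all 10 members under the alternatives that clustered the cells again. The exceptions were Leiden resolution 0.5 (8 of 10) and variable genes not scaled (9 of 10). Unnamed clusters, such as Lef1/Chil1 where Notum was highest, were not part of this check. Of 18 class calls between DMM and sham, 12 were higher and 6 lower. The total was 12 to 27 under the alternatives, lowest with a minimum of 200 UMIs and highest with none. The lower calls numbered 13 with at most 5% mitochondrial UMIs, 10 with doublets kept, 11 with no minimum of UMIs and 12 with variable genes not scaled, the last chosen after seeing the data; the cause was not tested. Over single pairs of a member with a class or with all connective tissue, 290 of 319 values of called pairs kept their call. Alternatives that left a pair with too few UMIs to be tested are not among the 319, so calls lost in that way are not counted. Frzb and Sfrp2 in synovial lining-like cells could be compared in only 9 and 10 alternatives. The calls of Dkk1, Dkk2, Dkk3, Sfrp2 and Notum in connective tissue kept theirs under all 15 alternatives. Those of Sfrp2 in tendon or ligament-like cells were kept in 9 of 14, of Sfrp4 in osteoblast-like cells in 10 of 14 and of Dkk3 in superficial zone chondrocyte-like cells in 12 of 15. Sfrp4 in tendon or ligament-like cells turned round: its log2 ratio was 0.61, but -0.94 with a higher minimum of genes per cell, -0.76 with at most 5% mitochondrial UMIs, -0.67 at resolution 1.5, -0.28 with the members among the variable genes, -0.80 with genes centred by library and -0.75 with genes not scaled. With doublets kept, Sfrp4 in chondrocyte-like cells was at -0.063. Median scaling gave 6 higher and 7 lower Wnt list genes in connective tissue, where CPM gave 4 and 14. Members under 50 UMIs in a cluster could not be compared at this depth.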

Other observations

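Wif1, a gene of the superficial zone, also had UMIs in small blood-like clusters. In neutrophil lineage-like cells it was at 145 CPM in DMM and 7.98 in sham, and a UMI was found in 25.9% of 58 DMM cells and 1.47% of 68 sham cells. In the erythroid-like cluster Tmcc2/Slfn14 it was at 231 CPM in 88 DMM cells and 6.74 CPM in 231 sham cells, and 1 DMM cell held 63.2% of the DMM UMIs. An unnamed cluster led by histone genes (Hist1h2bj/Hist1h3e) was at 226 CPM in DMM and 518 in sham, with 69.4% and 29.6% of the UMIs in 1 cell. Free RNA or a chondrocyte in the same droplet as their source was not tested.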
